A study of Mus musculus with 8 samples.

Results

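The messenger RNAs of the RNA polymerases and of the general transcription factors that load them onto genes were followed on 8 mouse liver arrays. The members were all genes whose symbol begins with Polr1, Polr2, Polr3, Gtf2, Gtf3 or Taf followed by a digit, taken from the probe sets that the array annotation assigns to a single gene symbol. This gave 70 genes, read by 137 probe sets, of 18193 genes with such a probe set. The rule itself uses no measured value, but it was chosen with earlier results of these data known. All 70 members passed the filter on dim genes, a mean signal of at least 40 in 1 or more groups, and were tested among 17790 genes. Each gene was read from its brightest probe set, and 34 of the 70 had more than 1 that passed, 7 at the most.

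The livers came from BALB/c mice of 8 weeks. Every mouse had received a recombinant adenovirus by the penile vein 5 days before surgery, either rAd.A20, which carries human A20, an inhibitor of NF-κB signalling, or the control virus rAd.βgal, which carries β-galactosidase, so that all groups share the vector and none is untreated. Lobes taken at a 78% liver resection gave the pre-βgal and pre-A20 groups, and remnants taken 24 h later gave the post-βgal and post-A20 groups. Each group held 2 arrays and each array the pooled RNA of 3 mice. A20 reached only part of the hepatocytes, the pools hide the spread between mice, and p-values measure only the spread between pools. The treatment text of the post-A20 records names the βgal virus while their titles, sources and descriptions name A20, and the latter set the group. The human transgene itself was not checked here.

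A cell's nucleus divides transcription between 3 polymerases. RNA polymerase I (Pol I) makes the ribosomal RNA precursor, polymerase II (Pol II) messenger RNA and polymerase III (Pol III) transfer RNA and the smallest ribosomal RNA, and a set of small subunits is built into more than one of them. Each enzyme needs its own initiation factors, SL1 for Pol I, TFIIA to TFIIH for Pol II, and TFIIIA, TFIIIB and TFIIIC for Pol III, with TFIID, the TBP complex that reads Pol II promoters, built largely from the Taf proteins. A liver that regrows after resection builds ribosomes before it divides, which calls on all 3 enzymes. The rule also takes in genes that share the names but not the task, such as Taf15, an RNA-binding protein, and Taf5l and Taf6l, which belong to histone acetyltransferase complexes.

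By role the 70 genes comprised 3 Pol I subunits, 4 subunits of SL1, 2 subunits shared by Pol I and Pol III, 3 shared by all the polymerases, 8 Pol II subunits, 15 genes of TFIIA to TFIIH and the Gtf2i family, 19 of TFIID and related complexes, 9 Pol III subunits and 7 of TFIIIA and TFIIIC. Probe sets that the annotation gives to several symbols, among them those of Taf9, Polr2k and Polr2l, were not members.

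The promoters of the 4 members called higher after resection in the βgal livers, the most called in any comparison of 2 groups, are printed here so that the genes the results turn on can be set beside their regulatory sequence. They are RefSeq sequences on GRCm38.p6, from 250 bases before to 50 bases after the start site, each 5′ to 3′ on the gene's own strand. Gtf2a2 lies at chr9:70012298-70012597 on the plus strand, Gtf2f2 at chr14:76010816-76011115 on the minus strand, Polr1e at chr4:45018359-45018658 on the plus strand and Polr3f at chr2:144527495-144527794 on the plus strand. Capitals mark matches, on either strand, to 6 motifs. The E-box was searched with the letters CACGTG, the ETS site with the letters CCGGAAG and the GC box with the letters GGGCGG. The core of the NRF1 site was searched as CGCATGCG, the box bound by NF-Y as CCAAT, and the element read by TBP as TATAAA. No match overlapped another in the 4 windows.
Gtf2a2: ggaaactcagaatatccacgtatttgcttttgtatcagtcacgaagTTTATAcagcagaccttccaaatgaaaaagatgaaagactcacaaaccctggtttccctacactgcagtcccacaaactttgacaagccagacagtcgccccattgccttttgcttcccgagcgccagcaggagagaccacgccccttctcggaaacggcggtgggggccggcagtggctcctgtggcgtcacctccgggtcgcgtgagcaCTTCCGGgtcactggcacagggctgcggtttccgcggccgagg
Gtf2f2: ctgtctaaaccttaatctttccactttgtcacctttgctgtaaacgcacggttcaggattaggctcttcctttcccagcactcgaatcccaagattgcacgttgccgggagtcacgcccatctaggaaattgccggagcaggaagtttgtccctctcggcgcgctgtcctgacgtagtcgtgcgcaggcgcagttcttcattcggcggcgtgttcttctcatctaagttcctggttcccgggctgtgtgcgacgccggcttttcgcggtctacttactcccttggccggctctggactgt
Polr1e: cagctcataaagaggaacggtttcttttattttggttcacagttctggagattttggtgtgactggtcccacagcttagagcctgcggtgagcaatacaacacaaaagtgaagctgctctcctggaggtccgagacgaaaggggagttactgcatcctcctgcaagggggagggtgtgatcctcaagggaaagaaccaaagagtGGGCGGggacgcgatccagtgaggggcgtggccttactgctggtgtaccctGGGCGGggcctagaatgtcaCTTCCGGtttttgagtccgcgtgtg
Polr3f: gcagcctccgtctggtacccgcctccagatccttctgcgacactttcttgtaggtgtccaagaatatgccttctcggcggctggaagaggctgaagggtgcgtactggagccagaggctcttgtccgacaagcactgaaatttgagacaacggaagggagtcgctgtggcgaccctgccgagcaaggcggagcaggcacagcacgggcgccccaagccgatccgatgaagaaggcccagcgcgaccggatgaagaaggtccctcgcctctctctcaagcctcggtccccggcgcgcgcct
The Gtf2a2 promoter held 1 ETS match and 1 match to the letters of the TBP element, and that of Polr1e 1 ETS match and 2 GC boxes. The TBP element's letters in the Gtf2a2 window lay on the opposite strand, in its upstream part and far from the start site. None of the 6 motifs was found in the windows of Gtf2f2 and Polr3f. Of the 70 members, 62 had a promoter in the table, 73 sequences in all. An ETS match was present in 35.6% of them, against 8.86% of all 32851 promoters and 13.2% of the 17760 promoters of genes tested, and an E-box in 24.7% against 7.15% and 8.74%. GC boxes were found in 60.3% against 35.7% and 52.7%, NRF1 cores in 6.85% against 1.87% and 2.9%, NF-Y boxes in 31.5% against 37.4% and 37.2%, and the TBP element's letters in 13.7% against 13.6% and 9.66%. The median GC content was 59% for the members, 52.7% for all promoters and 58.5% for genes tested. These are counts of letters, and binding was not measured.

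Signals are the authors' normalized intensities on a linear scale, and differences were taken on log2(signal + 16), which understates the change of dim genes. The median signal of all probe sets ran from 153 to 166 over the arrays, and the replicates of a group correlated at 0.969 to 0.988. The ratio of 3′ to 5′ probe sets of β-actin, a gauge of RNA degradation, was 7.0 on the first pre-βgal array and 3.64 on the first post-βgal array, against 1.27 to 1.62 on the other 6. The same ratio of pyruvate carboxylase was 10.2 and 8.88 on these 2 arrays and 6.23 on the first post-A20 array, against 3.42 to 4.32 on the others. Counts over all members of βgal arrays that do not overlap with another group are also given without the first array of each βgal group. That leaves 1 βgal array a group and raises such counts for all genes. The counts by class are given from all arrays only. Of 7 hepatocyte markers 6 were measured and bright on every array, with summed signals of 65244 to 69634 pre-βgal, 68957 to 71370.1 post-βgal, 74266 to 78338 pre-A20 and 77342 to 81807 post-A20. The tissue is a mixture, so fewer cells of a type and less RNA per cell cannot be told apart.

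After resection most members were lower in A20 than in βgal livers. In the remnants, 54 of the 70 genes (77.1%) had a lower mean in A20 than in βgal livers, against 45.4% of all genes tested, and their median log2 difference was -0.26, against 0.03 for all genes. Over all 136 of their probe sets that passed the filter the median was smaller, -0.14, against 0.05 for all 42703 probe sets. Both post-A20 arrays lay below both post-βgal arrays for 48 members (68.6%), where 26.4% of all genes did so, and above them for 9 (12.9%), where 33.7% did so. Without the first post-βgal array, 50 members (71.4%) lay below the remaining one, against 34.5% of all genes, and 13 (18.6%) above it, against 45.2%. Before resection the median was -0.04 for the members and -0.03 for all genes. There, 16 members were lower in A20 without overlap, against 29.3% of all genes, and 4 were higher, against 22.1%. Without the first pre-βgal array 23 (32.9%) were lower, against 42.5%, and 18 (25.7%) higher, against 35.1%.

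Seen from the resection, the members stood highest in the post-βgal livers. Their median log2 signal was 8.70 and 8.64 on the pre-βgal arrays, 9.12 and 9.0 on the post-βgal arrays, 8.49 and 8.73 on the pre-A20 arrays and 8.63 and 8.68 on the post-A20 arrays, while the median of all genes stayed between 8.11 and 8.20. The median difference after resection was 0.16 in βgal livers, against -0.05 for all genes, and 0.00 in A20 livers, against 0.02. The former was 0.26 without the first pre-βgal array, 0.04 without the second and 0.07 without the first post-βgal array. In βgal livers 24 members (34.3%) lay above both earlier arrays, against 20.4% of all genes, and 12 (17.1%) lay below them, against 33%. With the first array of both βgal groups left out 48 (68.6%) lay above, against 42%, and 22 (31.4%) below, against 58%. With the second of both left out 46 (65.7%) lay above, against 45%. In A20 livers 15 lay above, against 29.4%, and 13 below, against 22.3%. For 17 members (24.3%) both post-βgal arrays exceeded all 6 other arrays, as they did for 9.69% of all genes. With the first array of both βgal groups left out, the remaining post-βgal array was the highest for 31 members (44.3%) and for 19.5% of all genes. The comparison of transgenes after resection and that of resection in βgal livers share the post-βgal arrays, so they are not separate evidence.

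**Figure D1:**
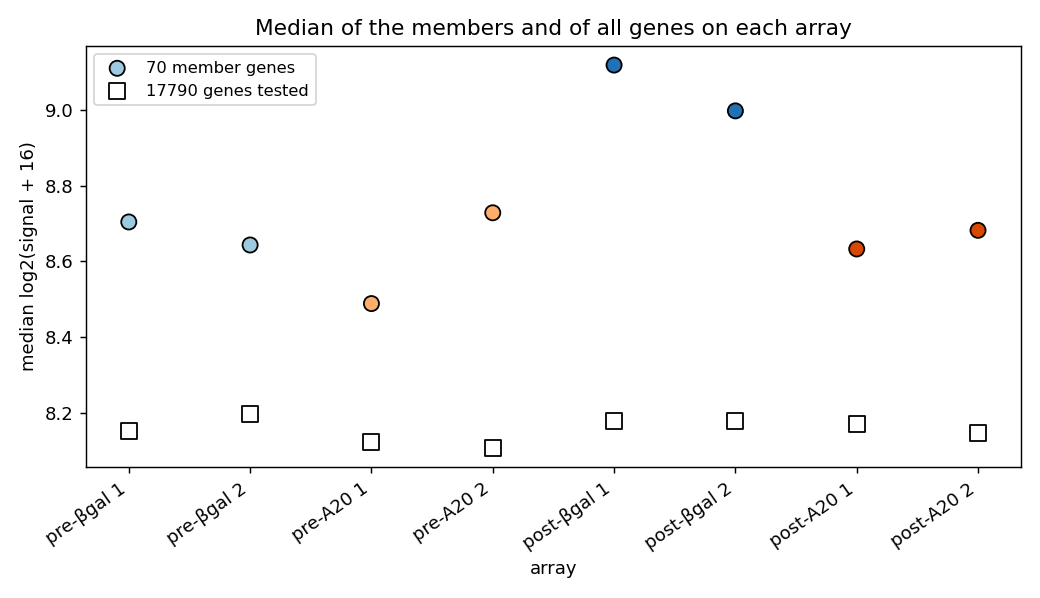
Median log2(signal + 16) on each of the 8 arrays (vertical axis) for the 70 member genes (filled circles, coloured by group) and for the 17790 genes tested (open squares). The post-βgal arrays stand highest for the members, at 9.12 and 9.0, while the squares stay between 8.11 and 8.20.

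Some cell markers were also highest in the post-βgal livers, and others were not. Summed signals of the 4 measured neutrophil markers of 5 were 1610 to 2458 pre-βgal, 3938 to 4712 post-βgal, 545 to 589 pre-A20 and 883 to 1150.2 post-A20. For the 5 endothelial markers of 5 they were 1732 to 1871, 2010 to 2209, 1572 to 1949.7 and 1547 to 1908 in the same order, and for 3 of 4 cycling markers 1391 to 2359, 1744 to 2036, 1129 to 1191 and 2670 to 3076. Cycling sums were highest in the post-A20 livers. No measured marker of these 3 lists was under the minimum signal in all groups. Neutrophil sums were thus highest where the members' median was, through S100a8, S100a9 and Mmp8, while Csf3r, at 214 and 244 post-βgal, stayed close to its pre-βgal 234 and 205. The endothelial list was split. Lyve1 read 180 and 173 pre-βgal and 660.1 and 719 post-βgal and Cdh5 302 and 226 and then 524 and 417, but Kdr went from 665 and 761 to 378 and 315, Stab2 from 577 and 404 to 499.8 and 380.3, and Pecam1 from 146 and 168 to 146 and 178. No list but the neutrophil and endothelial ones had its highest sum post-βgal. Kupffer cell and macrophage sums were 3943 to 3996 pre-βgal, 3066 to 3767 post-βgal, 2416 to 2657 pre-A20 and 3452 to 3483 post-A20. Stellate cell sums were 1034 to 1149, 914 to 962, 1099 to 1190 and 1104 to 1128 in the same order. The Kupffer cell and macrophage list was split too. Cd68 was highest post-βgal, at 417 and 585, against 263 and 311 pre-βgal, 206 and 180 pre-A20, and 339 and 317 post-A20. Csf1r, the brightest of the list, was highest pre-βgal, at 2638 and 2540, against 1714 and 2124 post-βgal. By mean, Adgre1 was also highest pre-βgal, Marco pre-A20 and Clec4f post-A20. The part of any of these cells in the members' levels was not tested.

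Few single genes passed the test, limma's moderated test with Benjamini-Hochberg adjustment over all genes at 0.05. Before resection 1 member was lower in A20, against 3.32% of all genes, and 0 higher, against 1.31%. After resection 1 was lower, against 0.905%, and 0 higher, against 0.512%. Resection raised 4 members in βgal livers (5.71%, against 2.48%) and lowered 0, against 1.51%. In A20 livers it raised 1, against 1.22%, and lowered 0, against 0.793%. Averaged over resection, 5 members were lower in A20 (7.14%, against 5.2%) and 1 higher, against 3.39%. Averaged over transgenes, resection raised 3, against 3.62%, and lowered 0, against 2.52%.

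The difference between the 2 resection responses, A20 minus βgal, was tested itself. The labels do not say whether the lobes and remnants with the same number came from the same mice, so the arrays were fitted as unpaired. By limma 0 members passed the adjusted threshold, as did 5 of all genes (0.0281%). At an unadjusted p under 0.05, 12 members (17.1%) had a negative difference, against 6.32% of all genes, and 4 (5.71%) a positive one, against 11%. The 12 were Gtf2a2, Polr2h, Polr1e, Gtf2f2, Taf2, Gtf2e1, Polr2j, Gtf3a, Gtf2e2, Polr2i, Gtf3c3 and Taf3, from -1.2 to -0.41 on the log2 scale, and the 4 were Polr2a, Taf4b, Taf15 and Polr3f, from 0.43 to 0.83. Their adjusted p ran from 0.155 to 0.280. The members' median was -0.21, against 0.05 for all genes, and came to -0.05 without the second pre-βgal array. If same-numbered arrays of a transgene were instead taken as pairs, 2 members passed the adjusted threshold (2.86%, against 1.47% of all genes). That fit also called 11 with resection in βgal livers (15.7%, against 11.8%).

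These counts depended on single arrays, and the counts over all genes moved with them. The 4 members raised by resection in βgal livers were 0 without either post-βgal array, where 0.556% and 0.517% of all genes passed in either direction. Without the second pre-βgal array they were 8 (11.4%, against 5.85%), and without either post-A20 array, which enters through the shared spread, 2 (2.86%, against 2.05% and 2.11%). Between the remnants 9 members (12.9%) passed without either pre-βgal array, against 5.41% and 5.39% of all genes, and 0 without any one of the other 6 arrays, against 0.0899% to 0.455%. Before resection 9 passed without the second pre-βgal array, 12.9% against 13.5%, and 0 without the second pre-A20 array, against 0.101%. Over both directions, the 6 members called between transgenes on average (8.57%, against 8.59%) became 13 without the second pre-βgal array, 18.6% against 19.2%. They became 2 without the second post-βgal array (2.86%, against 1.97%) and 1 without the first post-βgal array or any one A20 array (1.43%, against 1.09% to 3.67%). Resection in A20 livers gave 2 without either pre-βgal array (2.86%, against 4.15% and 4.17%). The averaged resection gave 7 without the second pre-βgal array (10%, against 8.32%) and 1 without either post-βgal array, the first pre-A20 array or either post-A20 array (1.43%, against 2.29% to 3.67%). Between transgenes before resection and on average, the members' share thus stayed near that of all genes when it was largest.

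**Figure D2:**
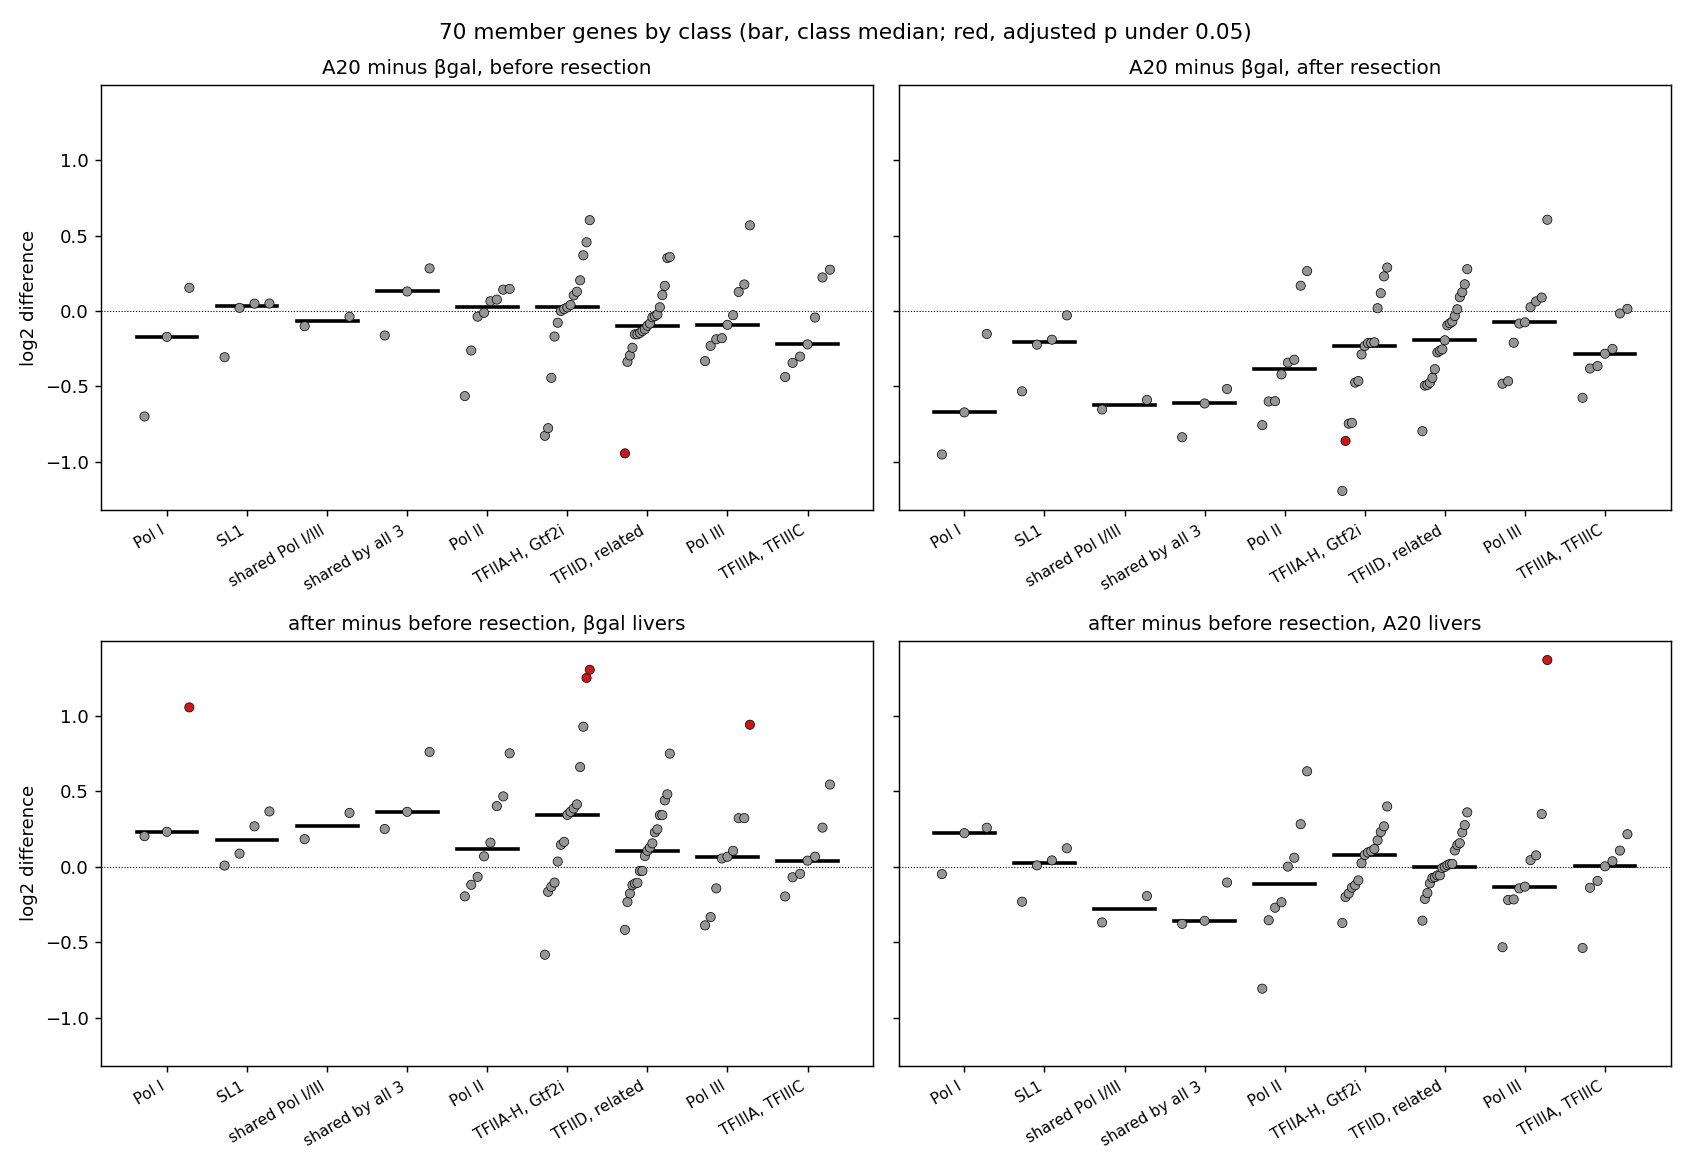
Log2 differences of the 70 member genes (points) by class for the comparison of transgenes before and after resection (upper panels) and of resection in βgal and A20 livers (lower panels). Bars are class medians and red points passed limma's test at an adjusted p of 0.05. After resection the classes' medians between transgenes lie below 0, from -0.67 for Pol I to -0.08 for Pol III.

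Pol I and its factors lay lower in A20 than in βgal remnants without passing the test. All 3 Pol I subunits were lower there without overlap, with a median of -0.67. So were 3 of the 4 SL1 genes (75%), with a median of -0.21, and 26.4% of all genes. The Pol I median of resection was 0.23 in βgal and 0.22 in A20 livers, the former 0.58 without the first pre-βgal array. Polr1e, whose product dimerizes with another subunit to help initiation, was the Pol I gene raised by resection in βgal livers. Its signals were 114 and 148 in the pre-βgal livers, 330.0 and 249 in the post-βgal livers, 119.8 and 177 in the pre-A20 livers, and 147 and 134 in the post-A20 livers. Only the post-βgal arrays stood apart, both above all the others. The log2 difference of resection was 1.06 ± 0.20 (SE, 2 arrays a group, adjusted p 0.0273) in βgal livers and -0.05 ± 0.20 (adjusted p 0.93) in A20 livers, and the A20 remnants were at -0.95 ± 0.20 (adjusted p 0.0563) against βgal remnants. Its second probe set gave 0.77 with resection in βgal livers and -0.66 between the remnants. The call was lost without any one of 5 arrays, with adjusted p up to 0.158: the first pre-βgal array, both post-βgal arrays and both post-A20 arrays.

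Polr1a, the largest Pol I subunit, was lower in A20 livers at both times. The signals were 561 and 339 in the pre-βgal livers, 544 and 487 in the post-βgal livers, 259.7 and 265 in the pre-A20 livers, and 331 and 303 in the post-A20 livers. Averaged over resection the difference was -0.69 ± 0.15 (adjusted p 0.0307), with -0.70 before and -0.67 after. The first pre-βgal array, with the highest β-actin ratio, had the highest value, and no A20 array reached the lowest βgal array. Its 4 dimmer probe sets differed by -0.19 to 0.03 in the same average. Leaving out single arrays lost the call in 6 of 8 cases, all but those of the pre-βgal arrays, with adjusted p up to 0.105. Polr1b, the second-largest subunit, ranged from 288 to 395 over the arrays and was called in no comparison.

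SL1 recruits Pol I to the ribosomal RNA promoter. Taf1a, Taf1b, Taf1c and Taf1d passed no test, and their differences between the remnants were -0.19, -0.03, -0.53 and -0.22. Taf1c had the widest spread, with 238 and 142 pre-βgal, 268 and 188 post-βgal, 144 and 148 pre-A20, and 153 and 148 post-A20. Its first βgal array exceeded the second in both βgal groups.

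All 5 shared subunits had a lower mean in A20 remnants, as did 45.4% of all genes. Polr1c and Polr1d, the pair shared by Pol I and Pol III that nucleates their assembly, were at -0.65 and -0.59 in A20 against βgal remnants. Polr2e, Polr2f and Polr2h, built into all the polymerases, were at -0.61, -0.52 and -0.84. For all 5 genes both post-A20 arrays lay below both post-βgal arrays, as they did for 26.4% of all genes. Yet the adjusted p of the 5 ran from 0.105 to 0.304. Polr2h, with the largest of these differences, read 400.3 and 347 pre-βgal, 699 and 590.2 post-βgal, 351 and 593 pre-A20, and 361 and 345 post-A20. Its resection differences were 0.76 ± 0.23 in βgal and -0.36 ± 0.23 in A20 livers (adjusted p 0.0981 and 0.484), and the second pre-A20 array lay between the post-βgal arrays. Polr1c read 1125 and 589.5 pre-βgal, 1088 and 790.1 post-βgal, 603 and 954 pre-A20, and 627 and 543 post-A20, and its pre-βgal pair spanned most of the range of the other arrays. For all 5 genes the first pre-βgal array was above the second, and the class median of Polr1c and Polr1d between transgenes before resection was 0.30 without the first pre-βgal array and -0.44 without the second.

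Among the 8 Pol II subunits 6 (75%) were lower in A20 remnants without overlap, against 26.4% of all genes. They were Polr2b, Polr2c, Polr2d, Polr2g, Polr2i and Polr2j, with differences from -0.76 to -0.32. The other 2 (25%), Polr2a and Polr2m, were higher without overlap, against 33.7%. None of the 8 was called in any comparison. Polr2a encodes the largest subunit, with the catalytic centre and the C-terminal repeat tail. Its signals were 1412 and 1391 in the pre-βgal livers, 1235 and 1208 in the post-βgal livers, 872 and 1019 in the pre-A20 livers, and 1437 and 1503 in the post-A20 livers. The pre-A20 arrays were the lowest and the post-A20 arrays the highest, without overlap with any other group. The difference of resection in A20 livers was 0.63 ± 0.16 (adjusted p 0.0923), while in βgal livers it was -0.20 ± 0.16 (adjusted p 0.488). Its second probe set gave 0.20 and -0.37 for these and -0.22 between the remnants, where the first gave 0.26. The direction after resection thus depended on the probe set.

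Polr2i, a small subunit with a role in elongation and accuracy, had the largest downward difference with resection in A20 livers that left the arrays apart. It read 1758 and 2048 pre-βgal, 2138 and 1532 post-βgal, 1836 and 2388 pre-A20, and 1244 and 1136 post-A20, a resection difference of -0.81 ± 0.22 (adjusted p 0.109) that was not called. Polr2j, which pairs with Polr2c in the core of the enzyme, read 1249 and 1099.6 pre-βgal, 1720.2 and 1535 post-βgal, 1047 and 1436 pre-A20, and 1111 and 820.5 post-A20, and both post-βgal arrays were the highest of the 8. Polr2d, which with Polr2g forms the stalk of the enzyme, had its highest values there too, with 393 and 309.5 pre-βgal, 629 and 569 post-βgal, 309 and 486 pre-A20, and 476 and 474 post-A20. Polr2m, whose product can bind Pol II and hold back initiation, stayed at 1404 to 1716 on all arrays.

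The general initiation factors were 15 of the 70 members. With resection in βgal livers 2 were called higher (13.3%, against 2.48% of all genes). Between the remnants 1 was called lower in A20 (6.67%, against 0.905%), and on average 3 were (20%, against 5.2%). Averaged over transgenes, resection raised 1 (6.67%, against 3.62%). None was called before resection or with resection in A20 livers. By probe set, 7.35% of those of all 70 members were called in any comparison, against 6.92% of all probe sets. Of the 15 genes of TFIIA to TFIIH and the Gtf2i family, 11 (73.3%) were lower without overlap in A20 remnants, against 26.4% of all genes. Another 2 (13.3%) were higher, against 33.7%. After resection in βgal livers 6 (40%) lay higher and 2 (13.3%) lower without overlap, against 20.4% and 33%. For 6 (40%, against 9.69%) the post-βgal arrays were the highest of all, Gtf2a2, Gtf2b, Gtf2e1, Gtf2e2, Gtf2f2 and Gtf2h1. The median of the class was -0.23 between the remnants. With resection it was 0.34 in βgal and 0.08 in A20 livers, the 0.34 becoming 0.21 without the second post-βgal array.

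Gtf2a2, the small subunit of TFIIA, which holds TBP on the TATA element, had the largest rise of any member in βgal livers. Its signals were 958 and 968 in the pre-βgal livers, 2338 and 2472 in the post-βgal livers, 1109.6 and 1584 in the pre-A20 livers, and 1239.7 and 1638 in the post-A20 livers. The 2 arrays of each βgal group lay close together and far from each other, and the A20 groups overlapped. The resection difference was 1.31 ± 0.22 (adjusted p 0.0207) in βgal livers, a fold of 2.47, and 0.10 ± 0.22 (adjusted p 0.86) in A20 livers. Averaged over transgenes it was 0.70 ± 0.15 (adjusted p 0.034). Between the remnants it was -0.75 ± 0.22 (adjusted p 0.121). Without the first or second post-βgal array the adjusted p in βgal livers was 0.114 and 0.117, with differences of 1.35 and 1.27. The averaged call was also lost without the first pre-A20 array or either post-A20 array, with adjusted p up to 0.146. The large TFIIA gene Gtf2a1 did not follow it, at 0.15 with resection in βgal livers and 0.29 between the remnants.

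Gtf2f2, the small subunit of TFIIF, which escorts Pol II to the promoter, read 158 and 286 in the pre-βgal livers, 477 and 588 in the post-βgal livers, 267 and 412 in the pre-A20 livers, and 342 and 414 in the post-A20 livers. Every post-βgal value exceeded the other 6, and the first pre-βgal array was the lowest. Resection gave 1.25 ± 0.28 (adjusted p 0.049) in βgal and 0.17 ± 0.28 (adjusted p 0.808) in A20 livers. The call was lost in 7 of the 8 fits that left out an array, all but that without the second pre-βgal array, with differences of 0.85 to 1.65 over the 8 and adjusted p up to 0.207. Its partner Gtf2f1, the large TFIIF subunit, instead differed by transgene. Gtf2f1 read 719.6 and 478 pre-βgal, 909 and 635 post-βgal, 348 and 324 pre-A20, and 459 and 437 post-A20, and every A20 array lay below every βgal array. The average difference was -0.76 ± 0.16 (adjusted p 0.0292), and a second probe set gave -0.27. The 2 βgal arrays with high β-actin ratios had the highest Gtf2f1 signals, and over all settings tried the average ran from -0.90 to -0.49. Leaving out the first post-βgal array or any one A20 array ended the call, with adjusted p up to 0.104.

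TFIIE brings TFIIH to the promoter. Gtf2e2, its smaller subunit, was the member that fell in A20 against βgal remnants. Its signals were 373 and 418 in the pre-βgal livers, 622 and 645 in the post-βgal livers, 324 and 429 in the pre-A20 livers, and 318 and 367 in the post-A20 livers. The post-βgal arrays stood above all others and the other groups overlapped. The difference was -0.86 ± 0.16 (adjusted p 0.0478) between the remnants, -0.08 ± 0.16 (adjusted p 0.809) before resection and -0.47 ± 0.12 (adjusted p 0.0438) on average. Between the remnants the call held only without a pre-βgal array, and the other 6 fits gave adjusted p of 0.0622 to 0.243. The average call was lost in 7 of 8 such fits, all but that without the second pre-βgal array, with adjusted p up to 0.139. Gtf2e1, the larger subunit, read 203 and 256 pre-βgal, 457 and 439 post-βgal, 232 and 383 pre-A20, and 296 and 346 post-A20 and missed the threshold with resection in βgal livers at 0.93 ± 0.22 (adjusted p 0.0542).

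TFIIH melts the promoter and also repairs DNA. Gtf2h4, one of its core subunits, had the largest downward difference of any member between the remnants, with signals of 1206 and 524 in the pre-βgal livers, 1112 and 718 in the post-βgal livers, 403 and 484 in the pre-A20 livers, and 436 and 335 in the post-A20 livers. The post-A20 arrays lay below both post-βgal arrays by -1.19 ± 0.37 (adjusted p 0.132), and the average over resection was -1.01 ± 0.26 (adjusted p 0.0484). The 2 βgal arrays with high β-actin ratios had the highest signals, and without both the average was -0.56 (adjusted p 0.0973). The next 2 probe sets gave -0.74 and -0.81, and the dimmest, at 62.4 to 99.6, gave 0.30. The call was lost in 6 of 8 fits that left out 1 array, those without a post-βgal or A20 array, with adjusted p up to 0.153. The other TFIIH genes, Gtf2h1, Gtf2h3 and Gtf2h5, were at -0.10, 0.02 and -0.11 in that average. Gtf2b, which bridges TBP and Pol II, read 564 and 672 pre-βgal, 781 and 871 post-βgal, 602 and 754 pre-A20, and 686 and 740.0 post-A20, highest in the post-βgal livers and not called.

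Outside the core factors, Gtf2i, a signal-responsive DNA-binding protein named with TFII-I, had the largest downward difference after resection in βgal livers that left the arrays apart, -0.58 ± 0.26 (adjusted p 0.212), with 2324 and 1368 pre-βgal, 1356 and 1034 post-βgal, 1374 and 1243 pre-A20, and 989 and 1022 post-A20. Its first pre-βgal array stood far above the other 7. The related Gtf2ird1 and Gtf2ird2 were at 0.39 and -0.11.

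**Figure D3:**
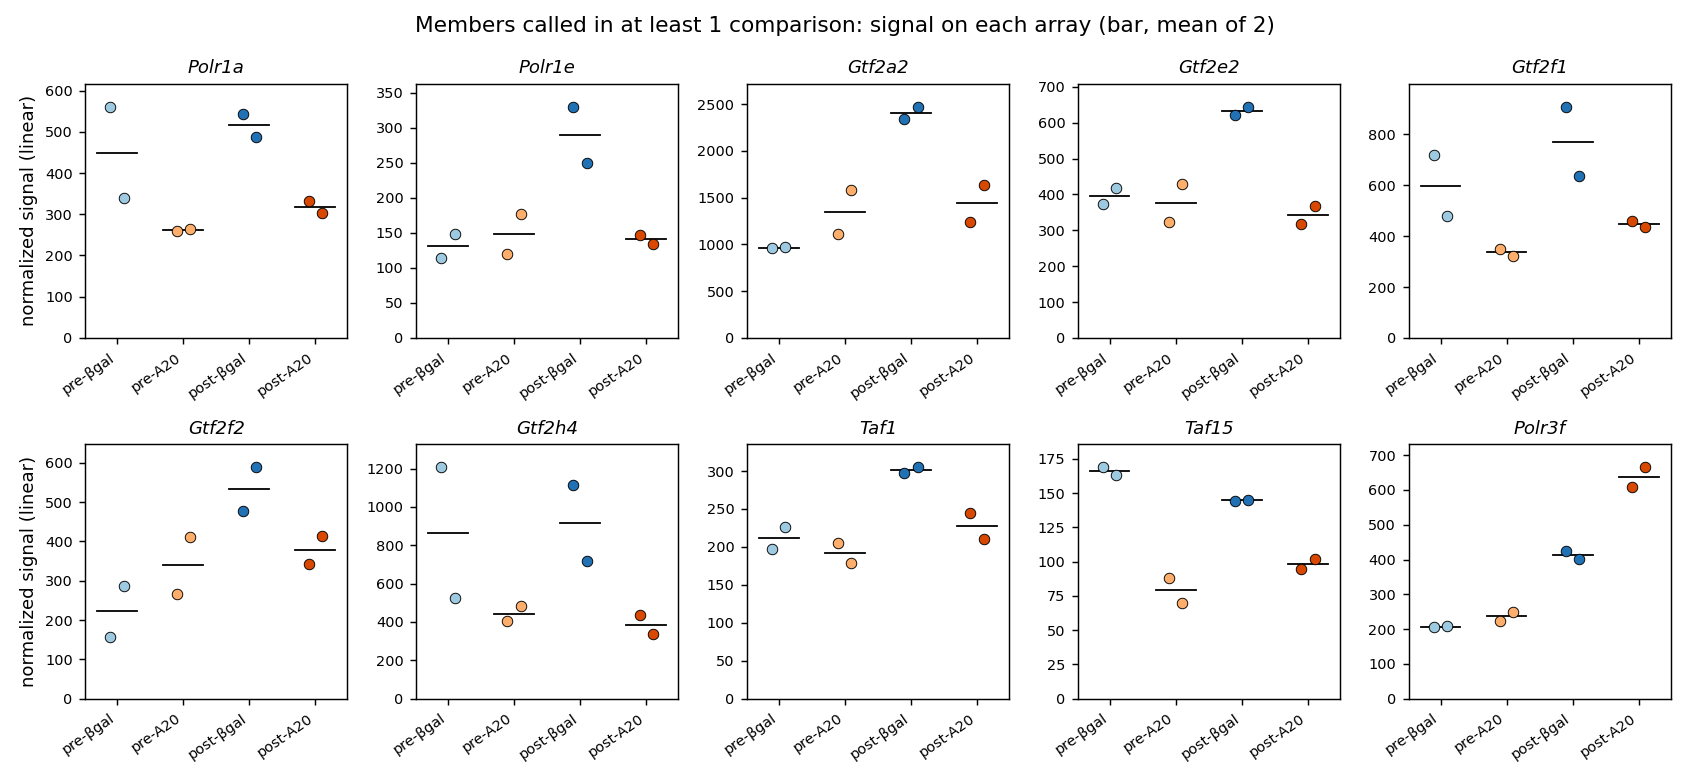
Normalized signal (linear vertical axis from 0) of the 10 members called in at least 1 of the 7 comparisons, with 2 arrays a group as points and their mean as a bar. Polr1e, Gtf2a2, Gtf2e2 and Taf1 peak in the post-βgal livers, Taf15 and Gtf2f1 are low in both A20 groups, and Polr3f is high after resection with either virus.

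TFIID and its relatives held genes of either direction. Of 19 genes 11 (57.9%) were lower without overlap in the A20 remnants and 3 (15.8%) higher, against 26.4% and 33.7% of all genes. Their median there was -0.19. After resection in βgal livers 7 (36.8%) lay higher and 6 (31.6%) lower without overlap, against 20.4% and 33%. Taf1, the largest TFIID subunit and its scaffold, was called for resection averaged over transgenes. It read 198 and 226 in the pre-βgal livers, 298 and 305 in the post-βgal livers, 205 and 179 in the pre-A20 livers, and 245 and 210.0 in the post-A20 livers, with both groups higher after resection and the post-βgal arrays highest. The average was 0.35 ± 0.09 (adjusted p 0.0493), from 0.48 in βgal and 0.23 in A20 livers, and it passed in 1 of the 8 fits that left out an array, that without the second pre-βgal array, with adjusted p up to 0.15 in the rest. Taf2, which contacts the start site, read 347 and 259 pre-βgal, 562 and 472 post-βgal, 306 and 374 pre-A20, and 277 and 303 post-A20. It was at -0.80 ± 0.17 between the remnants (adjusted p 0.0671) and 0.75 ± 0.17 with resection in βgal livers (adjusted p 0.0537), and its dimmer probe set gave -0.03 and 0.10.

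Taf15, the RNA-binding protein that shares the name, fell before resection. Its signals were 169 and 163 in the pre-βgal livers, 144 and 145 in the post-βgal livers, 88.1 and 69.7 in the pre-A20 livers, and 94.9 and 102 in the post-A20 livers. All 4 A20 arrays lay below all 4 βgal arrays. The difference was -0.94 ± 0.11 (adjusted p 0.00788) before resection, -0.49 ± 0.11 (adjusted p 0.0636) after it and -0.72 ± 0.07 (adjusted p 0.00605) on average. The average passed in all 8 fits that left out an array, and the first call was lost only without the second pre-A20 array (adjusted p 0.0629). It is dim, and a second probe set near the minimum, at 36.8 to 71.7, gave -0.24 before and 0.25 after resection.

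Several TFIID genes come as pairs of related copies. Taf4 read 211 and 246 pre-βgal, 185 and 198 post-βgal, 249 and 216 pre-A20, and 245 and 226 post-A20, and Taf4b, its tissue-restricted relative, 532 and 506 pre-βgal, 466 and 493 post-βgal, 421 and 419.6 pre-A20, and 539 and 549 post-A20. Both were higher without overlap in A20 than in βgal remnants, at 0.28 and 0.18, without passing the test. Taf5, Taf6 and their acetyltransferase-complex counterparts Taf5l and Taf6l were at -0.08, -0.03, -0.44 and -0.28 between the remnants. Taf7 was among the 3 largest downward differences after resection in βgal livers that left the arrays apart, -0.42 ± 0.19 (adjusted p 0.221), with 206 and 236 pre-βgal, 137 and 188 post-βgal, 162 and 180.4 pre-A20, and 209.7 and 141 post-A20. Taf7l, known from male germ cells, and Taf9b stayed dim, at 43.6 to 63.1 and 57.6 to 80.8, and so did Gtf2a1l, the germ-cell counterpart of Gtf2a1, at 60.4 to 83.1. Among the remaining TFIID genes, Taf10, Taf11, Taf12 and Taf13, which carry the histone folds, were at -0.48, -0.26, -0.26 and -0.07 between the remnants, and Taf3, Taf8 and Taf7l2 at -0.50, -0.10 and 0.01.

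**Figure D4:**
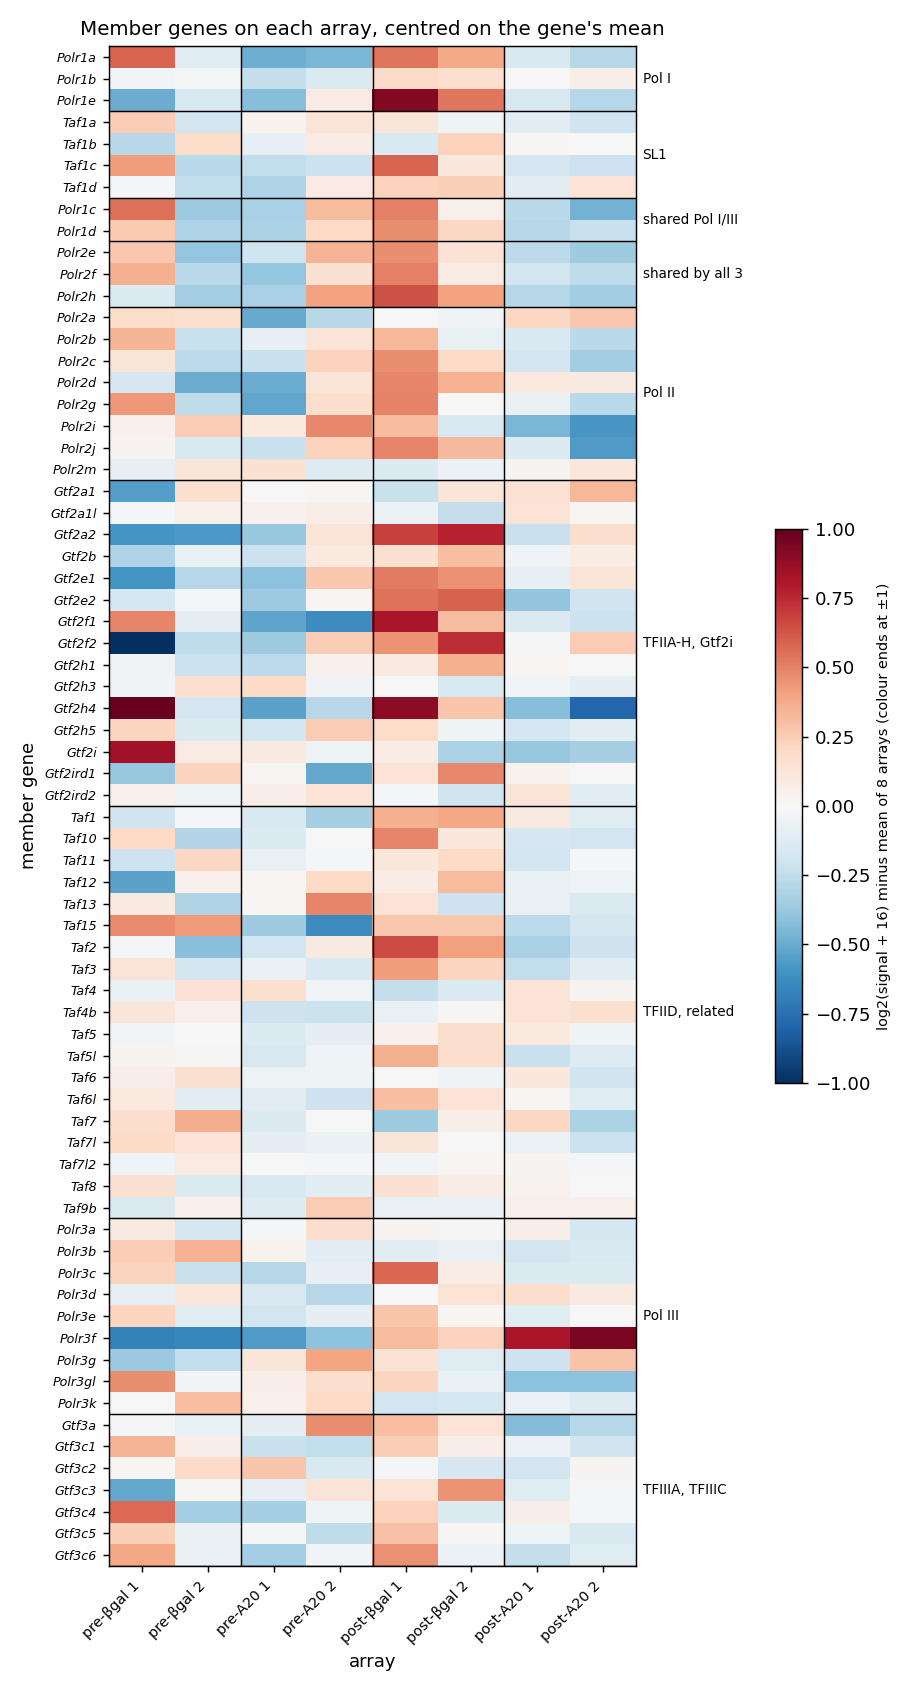
Log2(signal + 16) of each of the 70 member genes (rows, by class) on each array (columns), minus the gene's mean over the 8 arrays, with colour ending at ±1. The post-βgal columns are mostly red and the post-A20 columns mostly pale blue, with Polr3f and Polr2a as exceptions, and the first βgal array of each group is often redder than the second.

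Of the polymerases Pol III had the median nearest to 0 between the remnants. That median was -0.08. Of its 9 subunits 4 (44.4%) were lower and 2 (22.2%) higher without overlap there, against 26.4% and 33.7% of all genes. After resection in βgal livers 2 (22.2%) lay higher and 2 (22.2%) lower without overlap, against 20.4% and 33%. Polr3f, a subunit of the trimer that opens Pol III promoters, was the exception, called in 4 comparisons. Its signals were 205 and 209 in the pre-βgal livers, 425 and 401 in the post-βgal livers, 223 and 250.3 in the pre-A20 livers, and 609 and 665 in the post-A20 livers. Resection separated the arrays fully with either virus, and the post-A20 arrays were the highest. The difference was 0.94 ± 0.12 (adjusted p 0.00861) in βgal livers, 1.37 ± 0.12 (adjusted p 0.00217) in A20 livers and 1.16 ± 0.09 (adjusted p 0.000417) averaged, folds of 1.92, 2.59 and 2.23. The average between transgenes was 0.39 ± 0.09 (adjusted p 0.0318), and that between the remnants 0.60 ± 0.12 (adjusted p 0.0545).

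The calls in A20 livers and on average over transgenes passed in all 8 fits that left out an array. The call in βgal livers was lost without the first or second post-βgal array (adjusted p 0.0696 and 0.0581), and that between transgenes in 7 of 8, all but the fit without the second pre-βgal array, with adjusted p up to 0.112. The rise was seen by 1 of its 5 probe sets. The other 4 lay between 58.8 and 225 and gave -0.13, -0.13, -0.04 and 0.05 with resection in βgal livers and 0.13, -0.03, 0.17 and -0.19 in A20 livers. Which transcripts each probe set reads was not checked here.

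**Figure D5:**
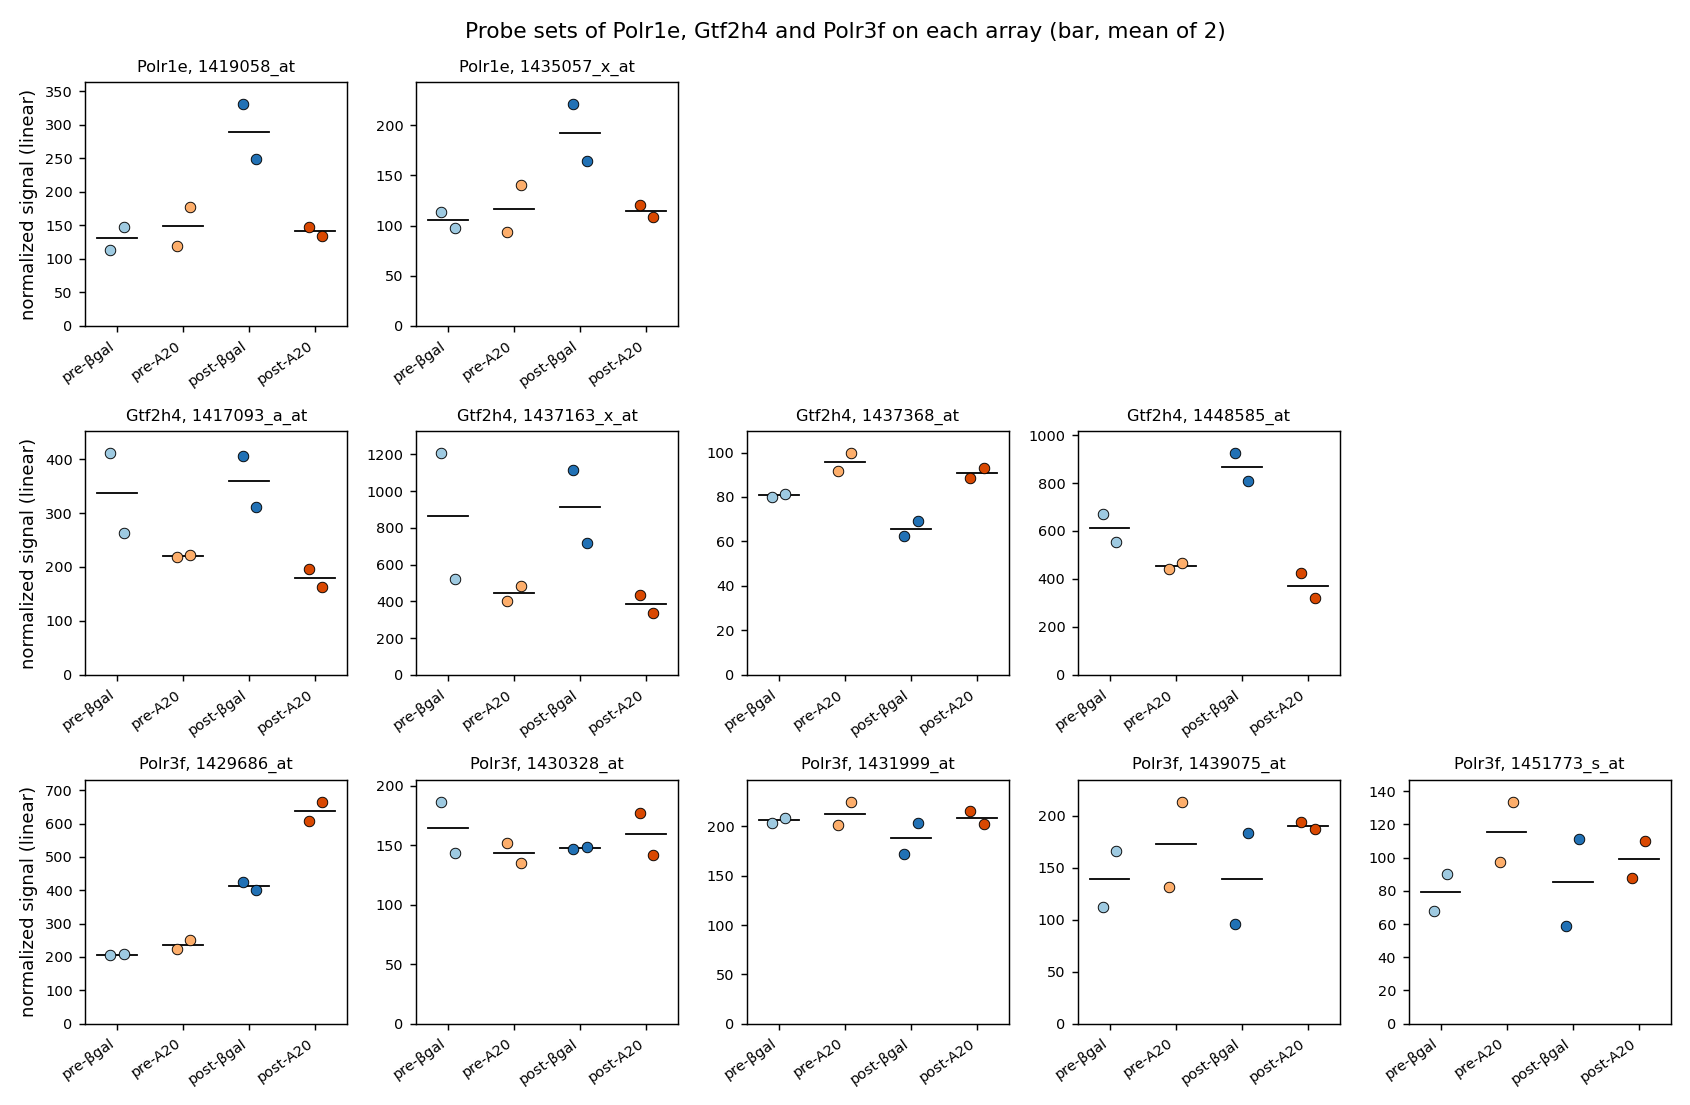
Normalized signal (linear vertical axes from 0) of each probe set of Polr1e (top), Gtf2h4 (middle) and Polr3f (bottom) that passed the filter, 2 arrays a group as points with their mean as a bar. The 2 probe sets of Polr1e run in parallel, 3 of the 4 of Gtf2h4 are lower in A20 remnants, and the first of the 5 of Polr3f alone rises after resection.

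Polr3a, the largest subunit, ranged from 265 to 344 over the 8 arrays and Polr3b, the second-largest, from 391 to 572, lower after resection without overlap (-0.39 ± 0.13 in βgal livers, adjusted p 0.124). Polr3g and Polr3gl are alternative forms of 1 subunit, the first known from embryonic and dividing cells and the second from most tissues. Polr3g read 97.2 and 107 pre-βgal, 146 and 119 post-βgal, 143 and 177 pre-A20, and 111 and 162 post-A20, and Polr3gl 295 and 205 pre-βgal, 246 and 199 post-βgal, 221 and 239 pre-A20, and 154 and 154 post-A20. Before resection Polr3g was at 0.57 ± 0.17 in A20 against βgal livers (adjusted p 0.097), the largest difference upward that left the arrays apart, and Polr3gl at -0.09. After resection in A20 livers Polr3gl was at -0.53 ± 0.17 (adjusted p 0.15) without overlap. Neither passed the test.

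TFIIIA and TFIIIC select the genes of Pol III. Of these 7 genes 5 (71.4%) were lower without overlap in A20 remnants and 0 higher, against 26.4% and 33.7% of all genes. Their median there was -0.28. All 7 lay below 0 in the average between transgenes, against 50.3% of all genes, with a median of -0.18. None was called. Gtf3c1, the largest TFIIIC subunit, read 852 and 702 pre-βgal, 797 and 702 post-βgal, 571 and 563 pre-A20, and 643 and 582 post-A20, with every A20 array below every βgal array, an average of -0.36 ± 0.12 (adjusted p 0.0876). Gtf3a, the zinc-finger factor of the smallest ribosomal RNA gene, read 501 and 484 pre-βgal, 628 and 558 post-βgal, 472 and 705 pre-A20, and 372 and 414 post-A20 and was among the 3 largest downward differences after resection in A20 livers, -0.54 ± 0.20 (adjusted p 0.207).

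A rule on the size of the change was also applied. Requiring the lower end of limma's 90% interval to reach a 1.5-fold change, Taf15 met it before resection, against 2.31% of all genes, and Polr1e between the remnants, against 1.34%. With resection in βgal livers Polr1e, Gtf2a2, Gtf2f2 and Polr3f met it, against 2.19%, and in A20 livers Polr3f, against 1.72%. In all, 5 members (7.14%) met it in at least 1 of the 4 comparisons, against 5.44% of all genes. Agreement between probe sets was limited: among the 34 genes with several, all had the same sign in 13 for the transgenes before resection, 12 after it, 18 for resection in βgal livers and 15 in A20 livers.

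Genes of the same machinery with other names were listed by their known role. Of 76 listed, 74 were measured, from TBP, the TFIIIB and snRNA activating genes and the remaining TFIIH subunits to the elongation factors and Mediator. Their median was -0.08 between transgenes before resection, -0.19 after it, 0.18 with resection in βgal livers and 0.06 in A20 livers. For all genes it was -0.03, 0.03, -0.05 and 0.02. The numbers higher and lower by the adjusted test in those comparisons were 1 and 1, 0 and 1, 3 and 1, and 1 and 0. Of all genes 1.31% and 3.32%, 0.512% and 0.905%, 2.48% and 1.51%, and 1.22% and 0.793% were. Averaged over resection 1 was higher and 5 lower in A20, against 3.39% and 5.2% of all genes. Averaged over transgenes 3 rose and 1 fell with resection, against 3.62% and 2.52%. The interaction was called for 0, against 0.0281%. Tbp itself, the protein shared by all 3 systems, read 215 and 256 pre-βgal, 263 and 285 post-βgal, 241 and 260.3 pre-A20, and 232 and 244 post-A20, with no call.

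Among those called, Tcea3, a form of the elongation factor TFIIS, fell by 1.99 ± 0.24 with resection in βgal livers (adjusted p 0.00644), where it read 715 and 529 pre-βgal, 170.5 and 120.0 post-βgal, 603 and 575 pre-A20, and 348 and 223 post-A20. Rpap3, a chaperone that assembles polymerases, rose by 1.2 ± 0.16 in the same livers (adjusted p 0.00861), as did Ell2, an elongation factor, by 1.07 ± 0.22 (adjusted p 0.0396), and Med14, the Mediator backbone, by 0.62 ± 0.13 (adjusted p 0.0375). Rpap3 read 232 and 214 pre-βgal, 605 and 474 post-βgal, 207 and 263 pre-A20, and 303 and 313 post-A20, with the post-βgal arrays highest. Ccnt1, the cyclin of the elongation kinase P-TEFb, was lower in A20 livers before resection at -0.83 ± 0.15 and after it at -0.81 ± 0.15 (adjusted p 0.0255 and 0.0428), with 762 and 689.8 pre-βgal, 606 and 671 post-βgal, 430.2 and 374 pre-A20, and 369.6 and 347 post-A20. Ccnt2, Nelfe, Snapc1 and Med4 were lower in the average alone, at -0.39, -0.73, -0.52 and -0.38. Snapc3, of the complex that activates small nuclear RNA genes, was higher in A20 livers before resection by 1.01 ± 0.14 (adjusted p 0.0123), and Snapc4, of the same complex, rose with resection in A20 livers by 0.76 ± 0.15 (adjusted p 0.0411). Pol I subunits named otherwise, Cd3eap, Twistnb and Znrd1, were at -0.31, -0.27 and -0.31 between the remnants, and the TFIIH kinase Cdk7 with Ccnh and Mnat1 at -0.60, -0.36 and -0.52, none called there.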

How the data were processed

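RNA of 8 liver pools was hybridised to Affymetrix mouse 430 2.0 arrays, and 45101 probe sets were deposited by the authors as normalized intensity values on a linear scale. Sources name 2 procedures for them: dChip (invariant-set scaling, mismatch probes ignored) in the study's methods and MAS5 in the sample records. Nothing read here settles between them. The number of arrays, 2 a group, limits the precision. Here log2(signal + 16) was fitted with limma 3.58.1 in R 4.3.3, as a model of 4 group means with a variance trend, over 17790 genes (the brightest probe set of each single-symbol gene with a group mean of at least 40), with Benjamini-Hochberg adjustment at 0.05. Residual and prior degrees of freedom were 4 and 4.52. The fit was tested on simulated data. Members and lists were chosen with earlier results of these data known. Genes named were all members called, the 3 largest non-overlapping differences each way in each comparison of 2 groups, the largest subunits, paralogue pairs and called partner genes. Other genes named, and the counts of arrays that do not overlap, were picked with values in view. Other settings covered the scaling, filter, offset, trend, all probe sets, replicate blocks, the arrays fitted, the β-actin ratio as a covariate and leaving out arrays.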

Additional observations from a re-analysis of the deposited data

How the results depend on the processing

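All 16 called differences kept their direction in all settings tried, 319 fits of single genes in all. Each gene was read from the same probe set throughout, so disagreement between probe sets could not enter. Settings that changed only the filter, the variances or the blocks left the difference itself unchanged, so its direction could not turn there. Polr3f with resection in A20 livers and on average, and Taf15 on average between transgenes, also kept their calls in all settings. Other probe sets of these 2 genes gave smaller differences or the other sign, as given above. The other 13 calls were lost in 1 to 14 settings. The median difference between the remnants was -0.32 for the members and -0.03 for all genes with median centring, -0.24 and 0.02 with quantile normalization, and -0.20 and 0.03 with the β-actin ratio as a covariate. With the former 2 scalings 50 and 41 members in place of 48 lay lower without overlap, 71.4% and 58.6%, against 32.3% and 26.4% of all genes.

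Counts of members called moved as follows, each with the share of all genes called in the same fit. The cause was not tested. Without the variance trend 2 were called before resection (3.68%), 0 between the remnants (0.956%) and 2 with resection in A20 livers (1.57%). A minimum mean of 100 gave 2 (1.61%) and an offset of 1 gave 0 (1.32%) between the remnants. Tested by probe set, 0 of the members' 136 were called between the remnants, against 0.283% of all probe sets. With resection in βgal livers 2 were called (1.47%, against 1.11%). On average between transgenes 5 were called (3.68%, against 4.07%), from 3 genes. Fits of the 4 arrays compared gave 10 between the remnants (6.28%) and 0 and 2 with resection in βgal and A20 livers (0.438% and 3.34%). The covariate gave 6 (4.64%), 15 (15%) and 3 (6.67%) in those comparisons, 11 on average over transgenes (14.1%) and 1 interaction (1.52%). Without both first βgal arrays the counts were 0 (0.545%), 0 (0.899%) and 2 (3.37%), then 1 between transgenes (2.74%) and 1 with resection on average (5.09%). Moderating variances over all kept probe sets, added after seeing the data, gave 0 between the remnants (0.332%). The fold bound was met by 17 members at 1.2-fold (19.8% of all genes), by 8 with the replicate block (6.22%) and by 3 without both first βgal arrays (5.17%), in place of 5 (5.44%). Of 136 probe sets 10 were called in any comparison, 7.35% against 6.92% of all probe sets. There were 6 with quantile normalization (6.45% of all), 31 with the covariate (18.6%) and 4 without both first βgal arrays (4.55%).

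Leaving out 1 array at a time gave 0 to 9 members before resection (0.101% to 13.5% of all genes), 0 to 9 between the remnants (0.0899% to 5.41%), 0 to 8 with resection in βgal livers (0.517% to 5.85%) and 1 to 2 in A20 livers (0.163% to 4.17%). It gave 1 to 13 between transgenes on average (1.09% to 19.2%), 1 to 7 with resection on average (2.29% to 8.43%), 0 for the interaction (0% to 0.753%), 4 to 9 for the fold bound (4.32% to 9.43%) and 1 to 25 probe sets (0.644% to 17.4% of all probe sets).

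The labels do not say what the replicate numbers share. Deviations of same-numbered arrays correlated at 0.617 for the βgal pairs and -0.018 for the A20 pairs, so the numbers were not taken to pair the samples. With the number as a replicate block 2 members were called before resection (6.18% of all genes), or 1 with the pre-A20 numbers crossed, chosen after seeing the data (6.77%). Between the remnants 1 was called (2.05%), with resection 6 in βgal livers (4.87%) and 1 in A20 livers (1.93%), on average 6 between transgenes (10.5%) and 4 with resection (6.45%), and 0 for the interaction (0.0393%). With the block within each transgene the resection counts were 11 in βgal livers (15.7%, against 11.8%), 2 in A20 livers (2.86%, against 5.36%) and 9 on average (12.9%, against 11.7%), and the interaction count was 2 (2.86%, against 1.47%).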

Other observations

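Probe sets that the annotation gives to several symbols could not be assigned to 1 member, and their values are given without a test. The probe set shared by Ak6 and Taf9, a TFIID subunit, read 604 and 536 pre-βgal, 813 and 723 post-βgal, 454 and 673 pre-A20, and 444 and 427 post-A20. A probe set shared by Taf9 and Gm12372 read 891 and 1441, 2093 and 2341, 1249 and 1670.1, and 1802 and 1950.1 in the same order, and another of that pair read 1468 and 596, 2201 and 1661, 927 and 1292, and 1321 and 1498. On all 3 the post-βgal arrays were the highest. That of Polr2k and LOC100862456, a subunit of all the polymerases, read 1395 and 1166, 1595 and 1399, 1375 and 1885, and 1120.0 and 1008, and that of Polr2l and Usp50, another shared subunit, read 5644 and 3391, 4742 and 3532, 3404 and 3727, and 4151 and 3762.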
